A study of Mus musculus with 8 samples.

Results

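The miR-34 family was followed in mouse embryonic stem cells by sequencing of small RNA. Its 6 mature miRNAs (mmu-miR-34a-5p, mmu-miR-34a-3p, mmu-miR-34b-5p, mmu-miR-34b-3p, mmu-miR-34c-5p and mmu-miR-34c-3p, written without the prefix for mouse from here on) were taken by name from the 1915 mature miRNAs of the deposited count table. All 6 had counts. miR-34c-3p did not pass the filter on low counts (edgeR's filterByExpr), so 5 members were among the 475 miRNAs tested.

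The study sequenced 8 libraries that form 4 groups of 2, to compare miRNAs in cells with and without AGO2 and after ectopic AGO1 induction. Wild type libraries A and B are from E14 cells, a pluripotent line of strain background 129/Ola derived from the blastocyst. The knockout libraries are Ago2KO1 and Ago2KO2, called lines 1 and 2 here, which are Ago2 knockouts of the same background. The other 4 libraries come from an Ago2KO1-AGO1 line, in which AGO1 can be expressed ectopically on induction: 2 without doxycycline (A and B, called uninduced) and 2 with doxycycline at 1 µg/mL (A and B, called induced). Every group other than wild type therefore carries the Ago2 knockout. By its genotype label the AGO1 line was made from knockout line 1, and its 4 libraries share 1 source line (Ago2KO1-AGO1_A), so it stands for a single line. Separate cultures for A and B are not stated in the labels, so the p-values measure the spread between these libraries, which may be technical.

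In general, the miR-34 miRNAs are known as direct transcriptional targets of the tumour suppressor p53 and as brakes on the cell cycle and on survival. Each hairpin is cut into a duplex whose arms can each be loaded into an Argonaute protein. A miRNA selects its targets mainly through its seed (bases 2 to 8). In most tissues the 5p arms are the main products of these hairpins. miR-34a comes from a locus of its own, and miR-34b and miR-34c from 1 shared primary transcript that is known for high levels in ciliated epithelium and testis.

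The sequences are shown because the seed sorts the 5 members with a sequence into 3 groups. They were read from RefSeq tables on build GRCm38.p6, where 5 of the 6 members were matched (miR-34c-5p was not matched). The seed is in capitals, 5′ to 3′, and a miR-449 arm with the same seed is given for comparison.
miR-34a-5p: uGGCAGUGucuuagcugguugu
miR-34b-5p: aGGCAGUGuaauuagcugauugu
miR-449a-5p: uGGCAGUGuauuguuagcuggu
miR-34b-3p: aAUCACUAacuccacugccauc
miR-34c-3p: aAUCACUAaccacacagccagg
miR-34a-3p: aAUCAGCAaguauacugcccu

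miR-34a-5p and miR-34b-5p share the seed GGCAGUG with miR-449a-5p and miR-449c-5p, and these 4 are the only ones with it among the 1679 mature miRNA names of the RefSeq table. miR-34c-5p and miR-449b were not matched there, so their seeds were not compared and either may share it. The seed AUCACUA was found in miR-34b-3p and miR-34c-3p alone, and AUCAGCA in miR-34a-3p alone. The matched arms are 21 to 23 bases long, and levels of different arms are set side by side without scaling for length. Whether arms of different sequence are captured alike in library preparation was not tested. Counted from 1 at the 5′ end, miR-34b-3p and miR-34c-3p differ at 5 positions, all outside the seed: U11C, C12A, U16A, U21G and C22G (miR-34b-3p first). How reads matching more than 1 miRNA were counted is not given in the sources used here.

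Mir34a lies on chromosome 4 (chr4:150068454-150068555, plus strand, GRCm38, GENCODE vM21), and its end overlaps an exon of Gm37795, an unclassified transcript on the same strand. Mir34b (chr9:51103562-51103645) and Mir34c (chr9:51103034-51103110) are on the minus strand of chromosome 9, separated by 451 bases. Both lie inside the span of Btg4 on the opposite strand and overlap none of its exons.

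Totals of counts ranged from 163467 (knockout line 2) to 1326638 (induced A), and the 6 members had 251 to 1441 counts in a library. Levels are given in CPM, the usual depth-scaled count, computed from a library total multiplied by edgeR's TMM factor, and group values as mean ± SD (n = 2). A single count was worth 0.856 to 5.03 CPM. For a count of 0, the limit of 3 counts came to 2.57 to 15.1 CPM depending on the library, and covers counting error only. miRNAs of the ES cell clusters miR-290-295 and miR-302-367 summed to 242216 to 317213 CPM over the 22 arms listed, of which 1 (miR-367-5p) was at 0 in all libraries. The family as a whole is minor beside them, at 499.9 to 1919 CPM for its 6 members together.

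miR-34c-5p was the most abundant member, with 70.9% of all family counts and rank 88 of the 475 tested miRNAs by mean CPM. It stood at 313 and 376 CPM in wild type A and B, 558 and 860.3 CPM in knockout lines 1 and 2, 1435 and 1168 CPM in uninduced A and B, and 729.8 and 604 CPM in induced A and B. Every library with the Ago2 knockout was above both wild type libraries, and both uninduced libraries were above all others. Knockout line 1 was below both induced libraries and line 2 above both.

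miR-34a-5p, the member most often tied to p53 and cell-cycle arrest, held 22.1% of family counts and ranked 149. Its level was 157 and 139 CPM (wild type), 324 and 297 CPM in the knockout lines, 336 and 430.0 CPM in the uninduced line, and 176 and 172 CPM in the induced line. The knockout and uninduced libraries were all above the wild type and induced ones. They were also all shallower (163467 to 736895 counts in total, against 949620 to 1326638), and the part of depth was not tested. The induced libraries lay just above both wild type ones.

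The remaining arms rested on few counts. miR-34b-5p had 10 and 10 counts in wild type, 5 and 14 in the knockout, 46 and 15 in the uninduced line and 30 and 18 in the induced line, or 8.996 to 70.4 CPM. The 2 knockout lines stood far apart, at 12.4 CPM in line 1 and 70.4 CPM in line 2, so the knockout alone spans most of its range. miR-34b-3p had 6 and 11, 6 and 4, 29 and 19, and 23 and 30 counts in the same order, or 7.12 to 62.8 CPM. Unlike the other hairpins, miR-34b gave similar counts from both arms, 148 from 5p and 128 from 3p over all libraries.

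miR-34a-3p had 7 and 6 counts in wild type, 11 and 3 in the knockout, 21 and 5 in the uninduced line and 6 and 7 in the induced line. In CPM its knockout (27.4 and 15.1) and uninduced values (28.0 and 16.5) lay above wild type (8.31 and 5.40) and the induced line (5.13 and 6.98). miR-34c-3p, the rarest member, had 2 and 4, 3 and 0, 15 and 3, and 10 and 11 counts. The 0 in knockout line 2 allows up to 15.1 CPM, above its level in 6 of the other 7 libraries. The panels of CPM by library show the 6 members together.

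**Figure D1:**
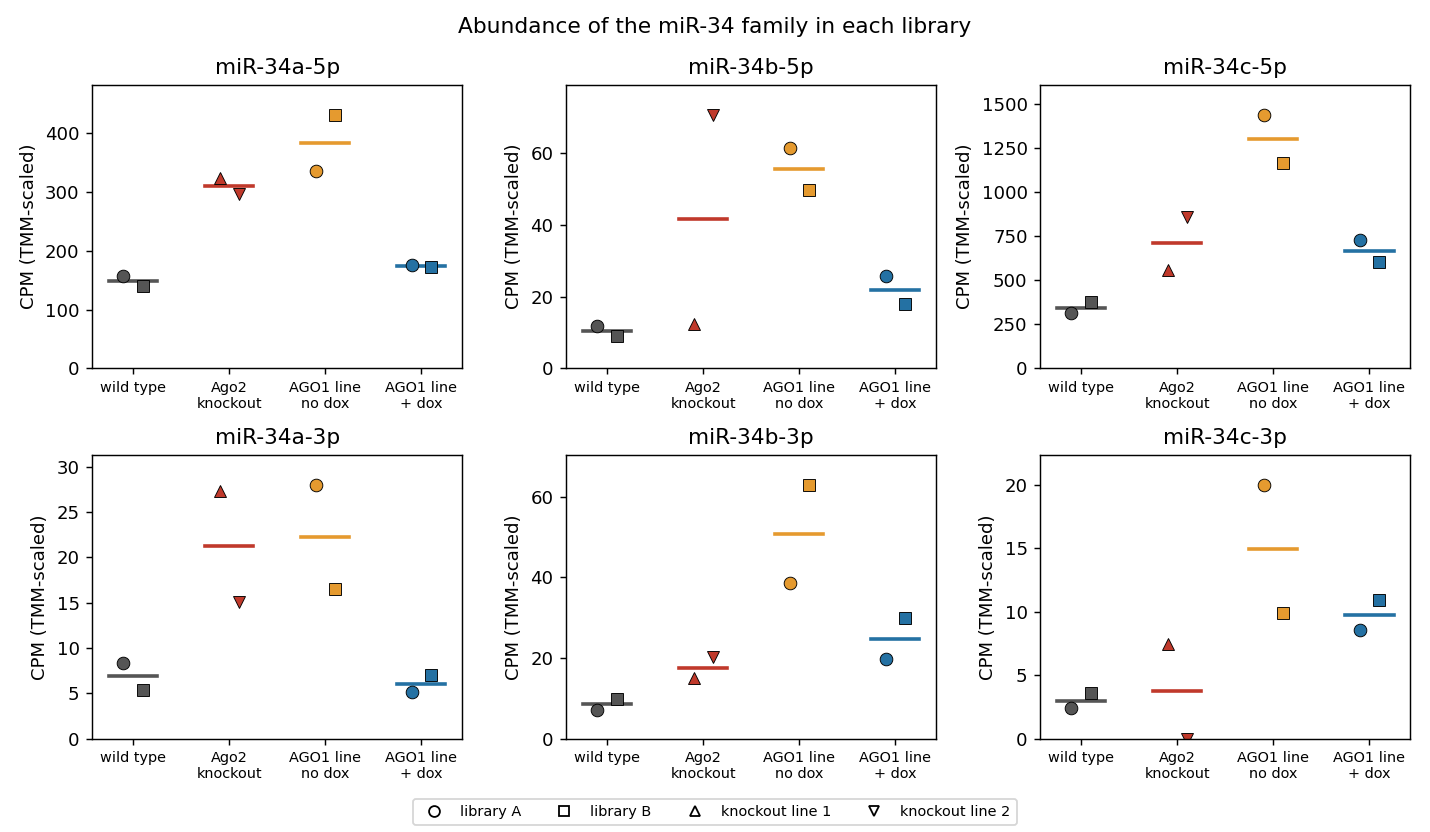
CPM (TMM-scaled, linear axes from 0) of each miR-34 arm by group. Each point is 1 library (circle A, square B, triangles the 2 knockout lines) and each bar the mean of 2. The uninduced AGO1 line has the highest mean for all 6 arms, and wild type the lowest for all but miR-34a-3p.

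Knockout lines were set against wild type to see how miRNAs differ without AGO2. miR-34a-5p stood at 148 ± 12.2 CPM with AGO2 and 310.3 ± 19.0 CPM without, and miR-34c-5p rose from 345 ± 44.2 to 709 ± 214 CPM. Of the 5 tested members 3 rose (miR-34a-5p, miR-34a-3p and miR-34c-5p) and 0 fell. Over all 475 tested miRNAs 57.7% were called, 25.5% higher and 32.2% lower. The members' median log2 fold change was 1.07, and that of all tested miRNAs -0.13. A call is an adjusted p under 0.05 from edgeR's quasi-likelihood test in 1 fit of all 8 libraries. The knockout libraries were shallower (359099 and 163467 counts) than the wild type ones (949620 and 1115712), and the part of depth in the result was not tested.

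By that test miR-34a-5p was 2.10-fold higher (log2 fold change 1.07 ± 0.24 SE, edgeR adjusted p = 0.00420). miR-34c-5p was 2.04-fold higher (1.03 ± 0.25, edgeR adjusted p = 0.00644). Both calls held in each of the 8 fits that left out 1 library, with edgeR adjusted p up to 0.0364 and 0.0307. miR-34a-3p was 3.34-fold higher (1.74 ± 0.61, edgeR adjusted p = 0.0329). It did not pass once wild type B (edgeR adjusted p = 0.149) or knockout line 1 (0.418) was left out, nor in DESeq2 (0.130). For the arms of miR-34b the values were 1.74 ± 0.72 (5p, edgeR adjusted p = 0.0598) and 0.95 ± 0.63 (3p, edgeR adjusted p = 0.215). The 5p value depends on which line is kept: it was 2.76 without line 1 (edgeR adjusted p = 0.000110) and 0.31 without line 2 (0.754). DESeq2 called it with both lines (2.01, DESeq2 adjusted p = 0.0430). From 3 knockout and 6 wild type counts, the depth-scaled ratio for miR-34c-3p was 1.63, with a 95% exact binomial interval of 0.263 to 7.62.

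Of the 6 comparisons, the uninduced AGO1 line against wild type gave the most member calls. miR-34c-5p was 3.78-fold higher in the uninduced line, 1301 ± 189 against 345 ± 44.2 CPM. miR-34b-3p was 5.49-fold higher (50.7 ± 17.1 against 8.51 ± 1.96 CPM) and miR-34b-5p 5.41-fold (55.4 ± 8.23 against 10.4 ± 2.03 CPM). All 5 tested members rose, where 59.2% of tested miRNAs were called, 25.9% higher and 33.3% lower. The members' median was 1.92, and that of all tested miRNAs -0.14.

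The log2 fold change was 1.92 ± 0.25 for miR-34c-5p (edgeR adjusted p = 0.000142), 2.46 ± 0.47 for miR-34b-3p (0.00145), 1.36 ± 0.24 for miR-34a-5p (0.000815), 2.44 ± 0.60 for miR-34b-5p (0.00595) and 1.80 ± 0.54 for miR-34a-3p (0.0160). The first 3 of these calls held in each of the 8 fits without 1 library. That of miR-34b-5p was lost without uninduced A (edgeR adjusted p = 0.0514). That of miR-34a-3p did not hold without wild type B (0.110) or uninduced A (0.305), or in DESeq2 (0.103). Without uninduced A fewer members were called, and so were fewer of all tested miRNAs. The knockout and the uninduced line were both set against the same wild type libraries, so these comparisons are not independent. The uninduced libraries were shallower too (736895 and 292895 counts, against 949620 and 1115712), and the part of depth was not tested.

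The uninduced line was compared with the knockout, since it carries the AGO1 construct without its inducer. No member was called by edgeR (0 of 5), and none of the 475 miRNAs was (0% higher and 0% lower). All 5 log2 fold changes were positive, with a median of 0.70 against -0.01 over all tested miRNAs. At an unadjusted p under 0.05, edgeR gave 2 members, miR-34c-5p (0.89 ± 0.25, adjusted p = 0.183) and miR-34b-3p (1.51 ± 0.54, adjusted p = 0.247), and 72 of all tested miRNAs. DESeq2 called 15 miRNAs, among them 1 member, miR-34c-5p (0.87, DESeq2 adjusted p = 0.0494). Leaving out knockout line 2 keeps only line 1, the labelled parent of the AGO1 line. The log2 fold change was then 1.20 for miR-34c-5p, 2.15 for miR-34b-5p and 1.64 for miR-34b-3p. It was 0.20 for miR-34a-5p and -0.22 for miR-34a-3p. Line 1 is then a lone library, assumed to vary like the other groups. miR-34a-5p was not called (0.29 ± 0.24, edgeR adjusted p = 0.565), also with any 1 library left out (0.20 to 0.36).

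Doxycycline was compared with no doxycycline within the AGO1 line, to ask what AGO1 induction does in cells without AGO2. miR-34a-5p fell from 383 ± 66.8 to 174 ± 2.70 CPM and miR-34c-5p from 1301 ± 189 to 667 ± 88.9 CPM. miR-34a-3p fell from 22.3 ± 8.08 to 6.06 ± 1.30 CPM. These 3 of the 5 tested members were called lower and 0 higher, where 28.6% of tested miRNAs were called, 7.58% lower and 21.1% higher. The members' median log2 fold change was -1.13 and that of all tested miRNAs 0.03. In each of the 5 arms both induced libraries were below both uninduced ones. With 2 libraries a group such a separation can arise from spread alone, and its share over all tested miRNAs was not counted here. The uninduced libraries were shallower (736895 and 292895 counts) than the induced ones (1326638 and 1117435), and the part of depth was not tested.

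On the log2 scale miR-34a-5p changed by -1.13 ± 0.23 (edgeR adjusted p = 0.00581), miR-34c-5p by -0.97 ± 0.25 (0.0159) and miR-34a-3p by -1.96 ± 0.54 (0.0226). For miR-34b-5p and miR-34b-3p it was -1.36 ± 0.54 (edgeR adjusted p = 0.0897) and -0.96 ± 0.41 (0.107). All 3 calls were lost without induced A (edgeR adjusted p = 0.0734, 0.0665 and 0.193 in the order given) or induced B (0.0722, 0.147 and 0.110), and those of miR-34c-5p (0.212) and miR-34a-3p (0.390) also without uninduced A. In these fits the log2 fold change of miR-34a-5p stayed between -1.17 and -1.09, and that of miR-34c-5p between -1.26 and -0.67. DESeq2 called 2 members lower, miR-34a-5p and miR-34c-5p, and not miR-34a-3p (-1.99, DESeq2 adjusted p = 0.127). Over all 475 tested miRNAs it called 37 lower and 76 higher. With only the 4 libraries of this line in the edgeR fit, all 5 tested members were called lower. In that fit 89 of all 435 tested miRNAs were called lower and 114 higher. No library of doxycycline-treated cells without the AGO1 construct was used here, so AGO1 and doxycycline itself cannot be told apart, and mRNAs of Argonaute genes are not measured in a miRNA table.

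Induced cells were then compared with wild type and with the knockout. Against wild type, miR-34c-5p was 1.93-fold higher (0.95 ± 0.25, edgeR adjusted p = 0.0132) and miR-34b-3p 2.81-fold higher (1.49 ± 0.47, edgeR adjusted p = 0.0301). miR-34a-5p (0.24 ± 0.23, edgeR adjusted p = 0.439), miR-34a-3p (-0.16 ± 0.60, 0.848) and miR-34b-5p (1.08 ± 0.61, 0.179) were not called. That makes 2 of 5 higher and 0 lower, beside 38.9% called over all tested miRNAs (19.2% higher and 19.8% lower). The median was 0.95, and 0.01 over all tested miRNAs. miR-34c-5p was no longer called in fits that left out wild type A (edgeR adjusted p = 0.0628) or induced A (0.0562). miR-34b-3p was no longer called when either wild type library (A, edgeR adjusted p = 0.104; B, 0.0865) or induced B (0.160) was left out, nor in DESeq2 (0.110).

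Against the knockout, the 2 arms of miR-34a were lower in induced cells, miR-34a-5p by 1.78-fold (-0.83 ± 0.24, edgeR adjusted p = 0.0244) and miR-34a-3p by 3.72-fold (-1.90 ± 0.61, edgeR adjusted p = 0.0393). miR-34c-5p was not called (-0.08 ± 0.25, edgeR adjusted p = 0.814), nor was miR-34b-5p (-0.66 ± 0.65, 0.454) or miR-34b-3p (0.55 ± 0.55, 0.461). That is 2 of 5 lower and 0 higher. Over all tested miRNAs 29.9% were called, 10.7% lower and 19.2% higher, and the median was 0.03 against -0.66 for the members. The call of miR-34a-5p was lost without knockout line 1 (edgeR adjusted p = 0.0613), induced A (0.156) or induced B (0.146). That of miR-34a-3p was lost in 6 of the 8 fits without 1 library.

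**Figure D2:**
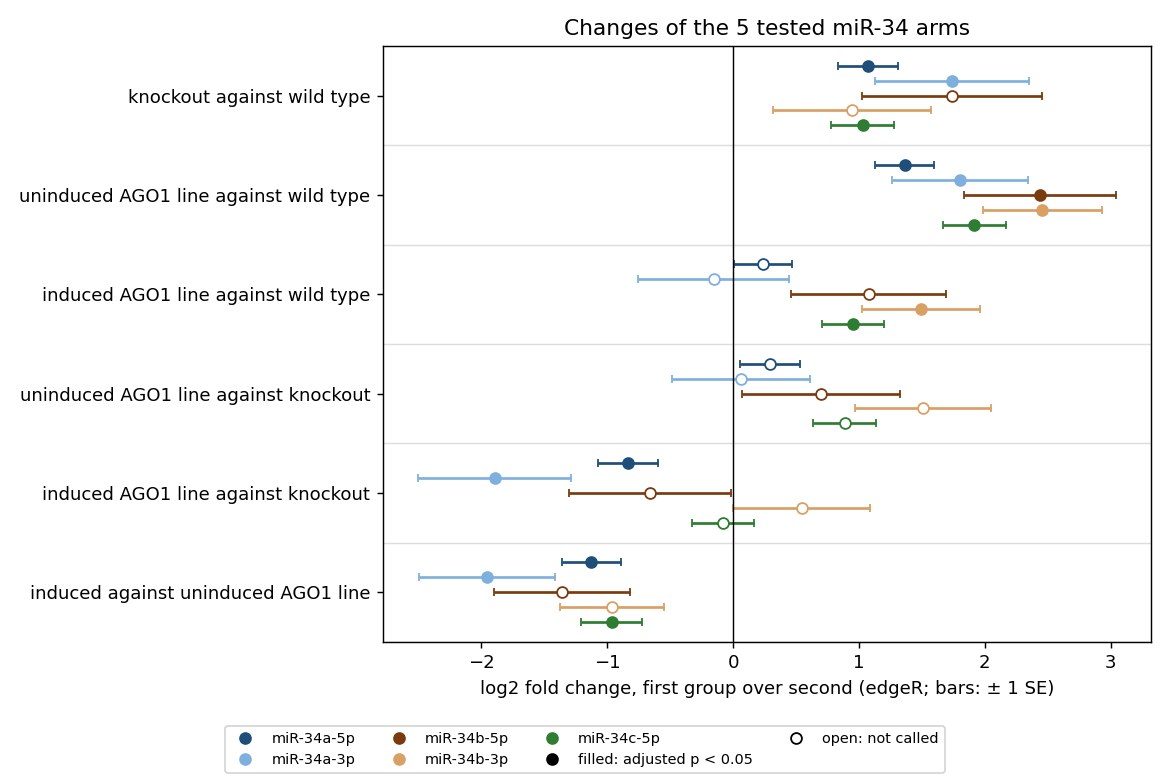
Log2 fold change (edgeR, bars ± 1 SE) of the 5 tested arms in the 6 comparisons, filled where the adjusted p was under 0.05. All 5 are filled and above 0 for the uninduced line against wild type, and all 5 lie below 0 for induced against uninduced, with 3 filled.

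In order of level, miR-34a-5p ran from wild type through the induced line and the knockout to the uninduced line. In that order only the step from induced to knockout passed the edgeR test. miR-34c-5p had the same order of group means, but here the step from wild type to induced was the one that passed. Whether miR-34a-5p and miR-34c-5p differ in their response was not tested. As a description, the ratio of miR-34c-5p to miR-34a-5p counts was 2.00 and 2.70 in wild type, 1.72 and 2.90 in the knockout lines, 4.28 and 2.72 in the uninduced line and 4.14 and 3.50 in the induced line. Both induced ratios were above all wild type and knockout ratios, while the uninduced pair spread over most of the range.

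The sum of the 3 5p arms was 503 ± 30.0 CPM for wild type, 1061 ± 236 CPM for the knockout, 1739.7 ± 131 CPM in the uninduced line and 863 ± 97.1 CPM in the induced line. miR-34a-5p supplied 26.6 and 32.5% of this sum in wild type, 36.2 and 24.2% in the knockout lines, 18.3 and 26.1% in the uninduced line and 18.9 and 21.7% in the induced line. Induced and uninduced shares overlapped, as did uninduced and knockout shares and knockout and wild type shares.

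**Figure D3:**
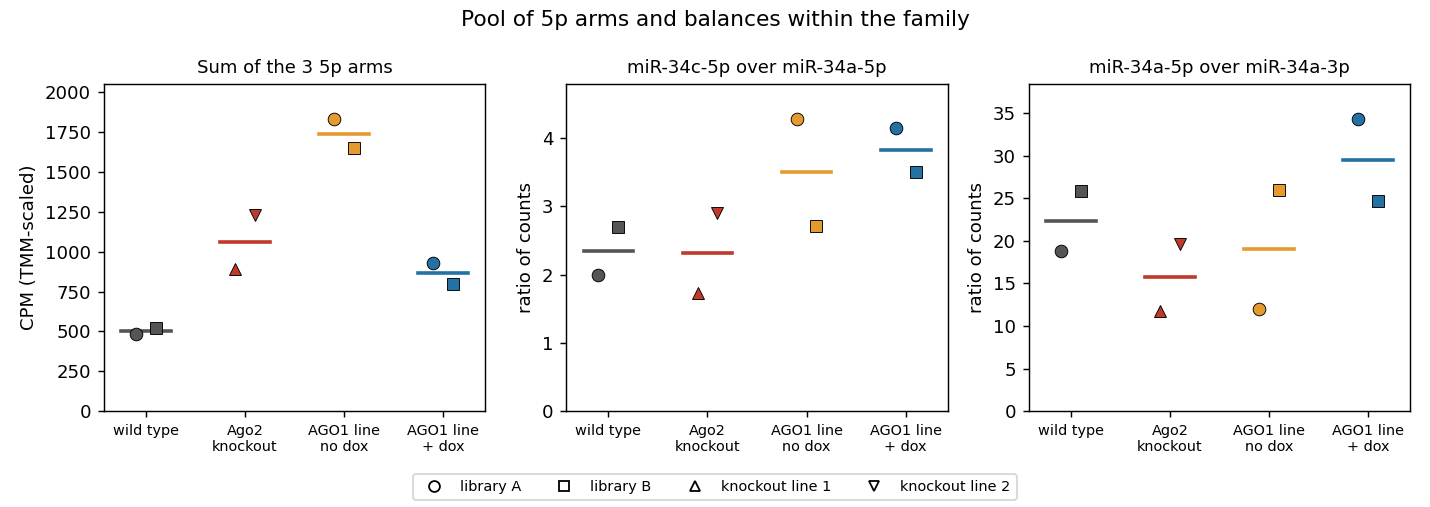
Sum of the 3 5p arms in CPM, and ratios of counts of miR-34c-5p to miR-34a-5p and of miR-34a-5p to miR-34a-3p, with 1 point for each library and a bar at the mean of 2. The sum is lowest in wild type and highest in the uninduced line, and the arm ratio of miR-34a ranges over 11.8 to 34.3, with the induced libraries (24.7 and 34.3) overlapping wild type and uninduced ones.

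Arm balance was examined because the 2 arms of a hairpin share their transcript. In each library miR-34a gave 11.8 to 34.3 5p counts for each 3p count, and miR-34b 0.600 to 3.50. For miR-34c the ratio was 55.1 to 132 in the 7 libraries with 3p counts. A test of arm by group over the 135 hairpins whose arms both passed the filter called neither miR-34a nor miR-34b in any of the 6 comparisons (edgeR adjusted p from 0.251 to 0.978). At an unadjusted p under 0.05 neither was called either. In knockout against wild type the change of the 5p over 3p ratio was -0.66 ± 0.57 on the log2 scale for miR-34a (edgeR adjusted p = 0.368) and 0.66 ± 0.91 for miR-34b (0.560), where 40.7% of the hairpins were called. The share of hairpins called was 48.9% for uninduced against wild type, 45.9% for induced against wild type, 12.6% for induced against knockout, 5.19% for induced against uninduced and 0.741% for uninduced against knockout. The 3p arms had 3 to 21 counts a library for miR-34a and 4 to 30 for miR-34b. In simulated data the arm test called 19 of 40 hairpins changed 4-fold, so a change of that size can be missed.

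The miR-449 miRNAs, known markers of multiciliated epithelium whose 449a-5p and 449c-5p arms share the GGCAGUG seed, had few or no counts. miR-449b and both arms of miR-449c had 0 counts in all 8 libraries, and miR-449a-3p had at most 1. miR-449a-5p had 5 and 4 counts in wild type, 5 and 3 in the knockout, 15 and 3 in the uninduced line and 8 and 6 in the induced line. It was called in 1 comparison, the uninduced line against wild type (1.79 ± 0.60, edgeR adjusted p = 0.0251). It was no longer called in fits without wild type B (edgeR adjusted p = 0.156), uninduced A (0.473) or induced A (0.0567), or in DESeq2 (0.173).

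Other miRNAs linked to p53 were taken from a list of 21 that p53 is known to induce or whose processing it promotes, or that act on p53 itself. Of these, 20 were in the table and 17 were tested. In the knockout against wild type 3 rose and 2 fell, with a median of 0.04, where 25.5% of all tested miRNAs were called higher and 32.2% lower. miR-16-1-3p rose most (2.74 ± 0.93, edgeR adjusted p = 0.0300) from 4 counts in wild type to 9 in the knockout, and its call was lost without wild type B (0.151) or knockout line 1 (0.249) and in DESeq2 (0.0826). miR-107-3p, known as a regulator of metabolism and cell-cycle genes, fell most (-3.59 ± 0.39, edgeR adjusted p = 5.99e-05), from 324 and 236 CPM to 24.9 and 20.1 CPM. It differs little from miR-103-3p, so reads of the pair are hard to assign.

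The other change downward was miR-143-3p, the fifth most abundant of the list (-3.29 ± 0.20, edgeR adjusted p = 8.05e-07). The other 2 that rose were miR-125b-5p (1.48 ± 0.36, edgeR adjusted p = 0.00667) and miR-203-3p (1.09 ± 0.38, edgeR adjusted p = 0.0331). These 2 are named after their values were seen. The other 5 of the 6 most abundant did not pass the test in this comparison: miR-22-3p (-0.01 ± 0.13, edgeR adjusted p = 0.935), miR-16-5p (0.04 ± 0.17, 0.847), miR-25-3p (-0.09 ± 0.18, 0.686), miR-192-5p (0.36 ± 0.17, 0.0826) and miR-15a-5p (0.16 ± 0.23, 0.550). miR-192-5p was called higher in DESeq2 (0.44, DESeq2 adjusted p = 0.0179) and without TMM factors (0.67, edgeR adjusted p = 0.00461), and miR-22-3p without TMM factors (0.30, edgeR adjusted p = 0.0468). With induction 2 of the 17 rose, miR-107-3p and miR-143-3p, and 0 fell, with a list median of -0.02, beside 21.1% higher and 7.58% lower over all tested miRNAs. In the uninduced line against wild type 3 rose and 4 fell (25.9% and 33.3% over all tested), and in the induced line against wild type 3 and 3 (19.2% and 19.8%). In the induced line against the knockout it was 3 and 3 (19.2% and 10.7%), and in the uninduced line against the knockout 0 and 0 by edgeR (0% and 0%).

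The miRNAs whose pattern was most like that of miR-34a-5p, by Pearson's r of log2(CPM + 1) over the 8 libraries among 384 others with a mean of at least 20 CPM, were miR-375-3p (r = 0.960), miR-195a-5p (0.941), miR-299a-3p (0.933), miR-381-3p (0.929) and miR-124-5p (0.923). For miR-34c-5p, chosen as a second reference after its level was seen, they were miR-125a-3p (0.963), miR-6539 (0.934), miR-125a-5p (0.928), miR-378d (0.918) and miR-30c-1-3p (0.918). miR-34c-5p itself had r = 0.786 with miR-34a-5p, and miR-34a-3p 0.871. These values are descriptions over libraries that share depth and group differences.

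Markers of other cell types were checked beside the family. The 5 blood markers summed to 1836 to 1881 CPM for wild type, 5705 to 6389.7 CPM for the knockout, 6212 to 6718 CPM in the uninduced line and 3711 to 3871 CPM in the induced line, with miR-223-3p and miR-451a at 0 in all 8 libraries. The 5 fibroblast markers summed to 4264 to 4976, 1585 to 1663, 1574 to 1652 and 2635 to 2881 CPM in the same order, with miR-214-3p at 0. In knockout against wild type 1 of the 4 tested fibroblast markers was called lower (miR-143-3p) and 0 higher, beside 32.2% and 25.5% over all tested miRNAs. Their median log2 fold change was 0.19. miR-143-3p stood at 3144 and 3689 CPM in wild type and 351 and 347 CPM in the knockout, so the sum does not stand for the list. The 5 neural markers summed to 1662 to 2062, 906 to 956, 814 to 1177 and 1057 to 1214 CPM, with miR-219a-5p at 0, and muscle markers reached at most 6.62 CPM, with miR-1a-3p and miR-206-3p at 0. The 4 liver and endoderm markers summed to 1935 to 2009, 2616 to 2806, 2755 to 2876 and 2554 to 2745 CPM, with miR-122-5p at 0. Their part in the changes of the miR-34 arms was not tested, and fewer cells expressing a miRNA cannot be told apart here from less of it in each cell.

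All values are relative to the other miRNAs of a library. Without TMM factors the median of all tested miRNAs moved from -0.13 to 0.16 in knockout against wild type (155 higher and 111 lower, in place of 121 and 153), from 0.03 to -0.17 in induced against uninduced (83 and 64, in place of 100 and 36) and from 0.03 to -0.37 in induced against knockout (72 and 117, in place of 91 and 51). No miR-34 call was lost or turned by this change. The 1 direction that turned was that of miR-34a-3p in uninduced against knockout, which was not called (0.06 and -0.11).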

How the data were processed

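Small RNA of 8 libraries was sequenced on an Illumina HiSeq2000, after TruSeq small RNA preparation, per the labels' protocols. The deposited table holds raw counts per mature miRNA, with no normalization by the authors. Bowtie and mm10 are named in the submitters' processing notes, with no version; trimming and mismatch settings are not given in the sources. Of its 2 header lines the first, which matches the sample titles, was used; the second gives both wild type columns the letter B, so which wild type library is A rests on the first line alone.

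Counts were analysed with R 4.3.3 and edgeR 4.0.16: filterByExpr (475 of 1915 miRNAs, 99.9% of counts), TMM factors, and the quasi-likelihood F test (2-sided) in 1 fit of 4 groups (4 residual degrees of freedom), with Benjamini-Hochberg adjustment over the 475 miRNAs of each comparison. Each SE was derived from the fold change and its F statistic. Arm balance was tested over 135 hairpins with each library as a term. Both tests were first tested on simulated data of knockout against wild type. The level test called 43 of 98 miRNAs changed 2-fold, 85 of 98 changed 4-fold and 4 of 258 unchanged ones. The arm test called 19 of 40 hairpins changed 4-fold and 0 of 95 unchanged ones.

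Alternatives were DESeq2 1.42.0 and its size factors, no TMM factors, other filters, 2-group fits, each library left out, letters as a replicate block and, added after seeing the data, a fit without the 2 shallowest libraries. Named miRNAs are the 6 members, the miR-449 arms, the 6 most abundant of the p53 list and its largest rise and fall in knockout against wild type, and the 5 most like miR-34a-5p. The members and lists were chosen with earlier results of these data known. No adjustment was made over the family alone.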

Additional observations from a re-analysis of the deposited data

How the results depend on the processing

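The 5 tested arms gave 452 values under the alternatives, of which 438 kept their direction; an arm that failed the filter of a fit, without an adjusted p in DESeq2, or in a comparison that cannot take the letter block has no value there. No called value turned. Calls rest on 2 libraries a group, and the arms of miR-34b, miR-34a-3p and miR-34c-3p on few counts. Fits with 1 library left out gave, in members called, 0 to 4 for induced against uninduced (3 with all libraries), 0 to 2 for uninduced against knockout (0), 0 to 3 for induced against wild type (2), 3 to 6 for uninduced against wild type (5 of 5; miR-34c-3p enters in some fits) and 0 to 2 for induced against knockout (2). Over all tested miRNAs the number called also moved between these fits in each of these comparisons. In induced against uninduced it was highest without knockout line 1 or line 2, as was the number of members. In uninduced against knockout it rose without line 1 or line 2, and members were called only without line 2. The member counts are to be read beside these shifts. In the same fits miR-34a-5p ranged from -1.17 to -1.09 in induced against uninduced and from -0.91 to -0.73 in induced against knockout. Its arm ratio ranged from -0.38 to 0.92 in uninduced against knockout and from -0.85 to 0.26 in uninduced against wild type.

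DESeq2 called 1 member in uninduced against knockout, 1 in induced against wild type and 1 in induced against knockout. Over all 475 tested miRNAs it called 15, 166 and 136 in the same order. Without the abundance filter 1 member was called in induced against knockout, beside 157 of all 1014 miRNAs tested. With a mean CPM of at least 20 it was also 1, beside 134 of 385. Without the filter miR-34a-5p was at -0.76 in that comparison (edgeR adjusted p = 0.0866) and miR-34c-5p at 0.0066. In a fit of 2 groups only, 203 of all 435 tested miRNAs were called in induced against uninduced, among them 5 members. Without the 2 shallowest libraries 4 members were called in induced against wild type, beside 263 of all 518 tested miRNAs (165 higher and 98 lower). The knockout and the uninduced line then hold 1 library each, so calls between them are not given. miR-34a-3p was then at -0.0018 in uninduced against knockout and 0.032 in induced against wild type. In induced against knockout miR-34b-5p was at 0.81 and miR-34c-5p at 0.26. Without TMM factors miR-34a-3p was at -0.11 in uninduced against knockout.

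Values not called with all libraries turned in some fits with 1 library left out, over these ranges: miR-34a-3p, -0.63 to 0.67 (uninduced against knockout) and -0.46 to 0.32 (induced against wild type); miR-34b-5p, -0.30 to 2.15 (uninduced against knockout) and -1.64 to 0.79 (induced against knockout; called at -1.64 without knockout line 1, edgeR adjusted p = 0.0219); miR-34c-5p, -0.33 to 0.24 (induced against knockout). The miR-34b arm ratio ranged from -0.50 to 1.56 in knockout against wild type, -1.01 to 0.19 in induced against uninduced, -1.50 to 0.57 in uninduced against knockout, -0.97 to 0.14 in induced against wild type, -0.58 to 0.43 in uninduced against wild type and -1.95 to 0.11 in induced against knockout. The cause was not tested.

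In knockout against wild type miR-192-5p was also called with DESeq2 size factors (0.44), with 2 groups (0.52) and without the 2 shallowest libraries (0.55). There miR-22-3p was at 0.0659 with DESeq2 size factors (edgeR), 0.0657 in DESeq2, 0.30 without TMM factors, 0.14 with 2 groups and 0.19 without the 2 shallowest libraries; miR-25-3p at 0.22, 0.070 and 0.29 under the last 3; and miR-16-5p at -0.042 without the filter. With 1 library left out miR-22-3p ranged from -0.023 to 0.17, miR-25-3p from -0.29 to 0.15 and miR-16-5p from -0.17 to 0.27.

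With a replicate block on the library letters (A, B), 5 members were called lower in induced against uninduced, beside 3 without it. Over all tested miRNAs 77 of 483 were called lower and 116 higher with the block, and 36 of 475 and 100 without it. The labels do not say that a letter marks a batch, and deviations of A from B over 385 miRNAs correlated at 0.157 (wild type and uninduced), -0.052 (wild type and induced) and 0.276 (uninduced and induced). The other counts of calls moved by no more than 1.5 times under the block.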
